A study of Mus musculus with 4 samples.

Results

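Chemokines are small secreted proteins that guide leukocytes, and the genes described here are the 36 chemokine ligand genes and 17 chemokine receptor genes of the mouse autosomes, 53 of the 20558 autosomal protein-coding genes of a RefSeq gene table. They were chosen by symbol alone: Ccl, Cxcl, Ccr or Cxcr followed by a number, plus Xcr1. Each gene was read through the CCGG sites within its span and 5 kb on either side. For pooled values overlapping windows were merged so that each site counted once, while single genes kept their own windows. The 53 genes fell into 47 merged windows that held 504 of the 967498 autosomal sites listed in all 4 samples, 298 at ligand genes and 206 at receptor genes. Cxcr3 lies on the X chromosome, Ccl21c is not placed on the primary assembly of the table, and Cxcl11 and Ccl19-ps are pseudogenes there, so these did not enter. The table gives gene spans and no exons, so a site is placed only inside or outside a span.

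The study profiled left ventricle of C57BL/6 mice aged 8 weeks, 3 days after induced myocardial infarction. The 4 samples were infarcted and non-infarcted tissue of Neil3-/- mice (called Neil3-null here), and infarcted and non-infarcted tissue of wild-type mice, with 1 sample in each group. Neil3 is a DNA glycosylase that removes oxidized bases. The labels place all 4 samples after an induced infarct, so the non-infarcted samples are not tissue of an uninjured heart. They do not say whether both tissues came from the same hearts or whether several animals were pooled in a sample. At the Neil3 gene itself 20 CCGG sites were seen, of which 15 were listed in Neil3-null infarcted, 17 in Neil3-null non-infarcted, 17 in wild-type infarcted and 19 in wild-type non-infarcted tissue. Of these sites, 1 was present in both wild-type samples and in neither Neil3-null sample, and 0 the other way round. The extent of the deletion is not given in the labels, so this checks the genotype labels only in part.

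After a myocardial infarction, CXC chemokines that bind CXCR2 draw neutrophils into the dying muscle, and CC chemokines that bind CCR2 and CCR1 draw monocytes. The receptors are coupled to inhibitory G proteins and are carried mainly by leukocytes. Many of the ligand genes lie in clusters and are switched on by nuclear factor kappa B in resident cells and in the leukocytes that arrive.

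The regulatory sequence around the start of 6 of these genes is printed first, because each holds at least 1 CCGG site that was measured in all 4 samples and whose values are given with the gene. Each window runs from 250 bases before to 50 bases after the gene's start (RefSeq, GRCm38.p6, the assembly also called mm10) and is written 5′ to 3′ on the gene's strand. Capitals mark the CCGG sites with a value in all 4 samples. The windows are chr11:83649329-83649628 (minus strand) for Ccl3, chr5:90890995-90891294 (plus strand) for Cxcl1, chr5:90903649-90903948 (plus strand) for Cxcl2, chr5:92348840-92349139 (minus strand) for Cxcl10, chr1:128592250-128592549 (minus strand) for Cxcr4 and chr1:74194582-74194881 (minus strand) for Cxcr1.
Ccl3: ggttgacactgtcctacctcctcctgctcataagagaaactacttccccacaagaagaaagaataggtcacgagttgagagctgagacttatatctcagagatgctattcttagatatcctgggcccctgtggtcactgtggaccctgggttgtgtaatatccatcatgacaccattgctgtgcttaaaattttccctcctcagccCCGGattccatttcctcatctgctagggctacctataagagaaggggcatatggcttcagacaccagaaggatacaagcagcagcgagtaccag
Cxcl1: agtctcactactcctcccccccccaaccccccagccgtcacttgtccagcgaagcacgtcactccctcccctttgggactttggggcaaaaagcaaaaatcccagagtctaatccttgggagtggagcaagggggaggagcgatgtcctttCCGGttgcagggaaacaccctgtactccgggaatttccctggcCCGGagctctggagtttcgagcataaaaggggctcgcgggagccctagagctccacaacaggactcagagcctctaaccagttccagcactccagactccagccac
Cxcl2: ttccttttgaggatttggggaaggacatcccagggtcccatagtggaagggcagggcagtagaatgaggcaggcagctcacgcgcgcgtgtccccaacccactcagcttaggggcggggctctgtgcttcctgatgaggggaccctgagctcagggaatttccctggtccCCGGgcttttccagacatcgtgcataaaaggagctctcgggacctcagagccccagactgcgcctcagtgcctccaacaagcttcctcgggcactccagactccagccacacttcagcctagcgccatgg
Cxcl10: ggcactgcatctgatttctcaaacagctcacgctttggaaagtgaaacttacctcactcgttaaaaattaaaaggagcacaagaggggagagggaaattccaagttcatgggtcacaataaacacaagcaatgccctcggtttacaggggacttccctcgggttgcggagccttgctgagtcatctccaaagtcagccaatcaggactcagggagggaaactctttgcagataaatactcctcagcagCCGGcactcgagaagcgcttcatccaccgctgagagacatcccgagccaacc
Cxcr4: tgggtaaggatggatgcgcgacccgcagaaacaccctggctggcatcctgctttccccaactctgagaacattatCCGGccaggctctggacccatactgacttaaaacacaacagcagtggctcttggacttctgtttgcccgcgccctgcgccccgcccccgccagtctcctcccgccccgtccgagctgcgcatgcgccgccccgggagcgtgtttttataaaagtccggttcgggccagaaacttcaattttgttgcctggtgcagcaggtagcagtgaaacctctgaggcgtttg
Cxcr1: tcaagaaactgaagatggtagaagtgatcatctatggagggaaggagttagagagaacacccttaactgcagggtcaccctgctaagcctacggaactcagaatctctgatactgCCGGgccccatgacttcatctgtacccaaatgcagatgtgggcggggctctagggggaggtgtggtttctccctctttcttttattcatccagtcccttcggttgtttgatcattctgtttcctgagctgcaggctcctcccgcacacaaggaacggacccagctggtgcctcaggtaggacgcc

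RefSeq promoter windows were at hand for 39 of the 53 genes, 46 windows in all. They were poorer in CpG than promoters at large, with a median of 4 CpG per window against 7 over 31396 autosomal promoter windows. A CCGG was present in 50% of them, against 53.5% of all promoter windows. The kappa B consensus, a motif of 10 letters of which several are degenerate, was searched on both strands. It was found in 9 of the 46 windows (19.6%), against 4.57% of all promoter windows. These 9 belong to Cxcl1, Cxcl2, Cxcl3, Cxcl10, Ccl9, Ccl20, Ccl27a, Ccr3 and Ccr6. Of the windows printed above, those of Cxcl1, Cxcl2 and Cxcl10 hold it.

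From each sample 3 libraries were read. HpaII cuts CCGG when the inner cytosine is unmodified, whereas MspI cuts it in any of its methylation states. The ratio of HpaII to MspI signal, in percent, therefore follows the unmodified part of a gene's sites: a higher ratio means relatively less methylation. The deposited totals of the 3 libraries of a sample differ by a factor of at most 1.07, so the ratio is relative, it can exceed 100%, and it is not a share of DNA molecules. Differences are in percentage points of this ratio, and with 1 sample per group no replicate error can be set on them. In bulk tissue, a change in the mix of cells and a change of modification within cells cannot be told apart.

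Of the 53 genes, 42 had at least 5 sites and are compared one by one: 27 ligand genes and 15 receptor genes. Ccr2, the receptor that brings inflammatory monocytes out of the bone marrow, had no site listed in all 4 samples, and nor did Ccl19, Ccl21a, Ccl21b, Ccl21d and Ccl27b. Another 5 genes had between 1 and 4 sites: Ccr1, Ccl20, Ccl8, Ccl7 and Cxcl13. The 42 genes carried few sites each, with a median of 9.5 and a range from 5 to 31, against a median of 23 over the 17743 autosomal genes with at least 5 sites. In 11 of the 42 windows another gene lay within reach, so some of the sites also belong to a neighbour. Library totals over the autosomes ran from 33764100 to 43428600 units of normalized signal and were lowest in wild-type infarcted tissue, where none passed 36256700, against at least 39997200 in the other samples; how many tags they stand for is not known.

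Over whole windows, the chemokine genes had higher ratios, and so relatively less modification, than all gene windows in all 4 samples. Within 1 kb of a gene start their ratios were lower than those of all genes, as given below by position. Pooled over the 504 sites, HpaII signal was 137% of MspI signal in Neil3-null infarcted tissue, 128% in Neil3-null non-infarcted tissue, 138% in wild-type infarcted tissue and 124% in wild-type non-infarcted tissue. Over all gene windows the ratio was 111%, 109%, 109.9% and 105% in the same samples. Single genes spread widely around these pooled values, as the plot of levels by gene shows. The highest ratios belonged to the neutrophil attractant Cxcl2 at 331%, 293%, 318% and 377%, and to Ccr10, the receptor for skin-homing lymphocytes, at 258%, 241%, 284% and 240.5%, in the same order of samples. The T cell attractant Ccl22 lay at the low end, at 60.9%, 67.9%, 65.3% and 62.1%. Cxcl2 had the highest ratio of the 42 genes in every sample.

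**Figure D1:**
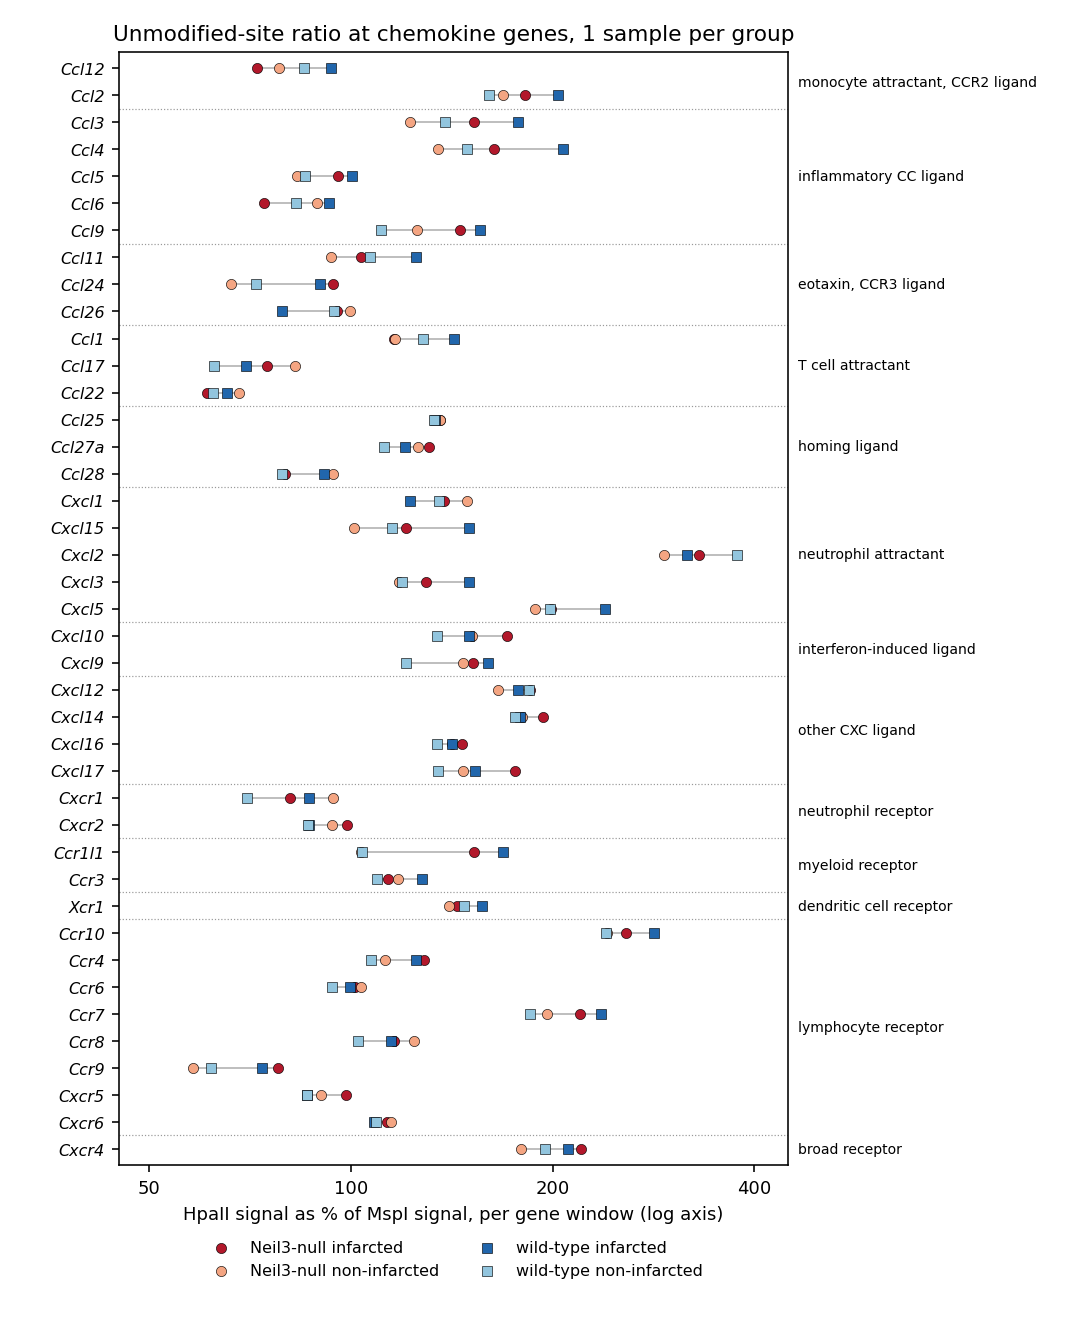
HpaII signal as a percent of MspI signal (log axis) for 41 chemokine and receptor genes with at least 5 sites, in the 4 samples, 1 per group; genes are set out by role and the grey line spans the 4 values of a gene. Cxcl2 and Ccr10 sit highest in the plot, with Cxcl2 between 293% and 377%.

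The first question the design asks is how infarcted tissue differed from non-infarcted tissue. Both classes had a higher ratio, and so relatively less modification, in infarcted tissue, in both genotypes. The ligand sites stood at 134% in Neil3-null infarcted tissue against 127% in Neil3-null non-infarcted tissue, a difference of 7.80 points. In wild-type tissue they stood at 137% infarcted against 124% non-infarcted, a difference of 13.3 points. The receptor sites stood at 141% against 129.8% in Neil3-null tissue, and at 139.6% against 124% in wild-type tissue, differences of 10.9 and 16.0 points. Over all gene windows the same differences were 2.11 points in Neil3-null and 4.69 points in wild-type tissue. Both class differences kept their direction under every alternative tried.

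Pooled by class, the difference lay in the HpaII libraries. Expressed per 1000000 units of each library's own total, the HpaII signal at ligand sites was 397 in Neil3-null infarcted and 376 in Neil3-null non-infarcted tissue, and 407 in wild-type infarcted and 375 in wild-type non-infarcted tissue. The MspI signal there was 314, 311, 312 and 306 in the same order. At receptor sites the HpaII signal was 293, 271, 297 and 271, and the MspI signal 222, 219, 224 and 222. On the log2 scale the HpaII share was higher in infarcted tissue by 0.08 and 0.12 at ligand sites and by 0.11 and 0.13 at receptor sites, in Neil3-null and wild-type tissue in that order. The MspI share differed by 0.01 and 0.03 at ligand sites and by 0.02 and 0.02 at receptor sites.

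By gene, 27 of the 42 (64.3%, against 62.4% of all genes) were higher in infarcted tissue in Neil3-null mice, a share close to that of all genes, and 37 of 42 (88.1%, against 70.6%) in wild-type mice. The median difference of the 42 genes was 8.95 points in Neil3-null and 13.4 points in wild-type tissue, against 2.24 and 4.88 points over all 17743 genes. The same direction in both genotypes, which share no sample, was seen in 28 genes: 25 were higher in infarcted tissue in both (59.5%, against 47.4% of all genes) and 3 were lower in both (7.14%, against 14.4%). A difference of at least 20 points was taken as large. In Neil3-null tissue 8 of the 42 genes were at least 20 points higher in the infarct (background 5.55% of all genes) and 1 was at least 20 points lower (background 1.95%). In wild-type tissue 11 of the 42 genes were at least 20 points higher (background 10.3%) and 1, Cxcl2, was at least 20 points lower (background 2.59%). Both genotypes had this difference at 4 of the 42 genes, Ccl3, Ccl4, Ccr7 and Ccr1l1, all of them higher in the infarct (background 1.99%). Neighbouring genes can share sites in these counts, as Ccl3 and Ccl4 do. Of the 38 merged windows with at least 5 sites, 7 were at least 20 points higher in Neil3-null tissue, 9 in wild-type tissue and 4 in both. The 4 windows were Ccl3 with Ccl4, Ccr7, Ccr1 with Ccr1l1, and Ccl2 with Ccl7. The last, at 20.9 points in Neil3-null and 28.2 points in wild-type tissue, is not among the 4 genes. The window of Ccr1l1 here also holds the 1 site of Ccr1. No background was set for merged windows. None of the 42 was at least 20 points lower in both (background 0.344%). Genes with few sites vary more, and among the 11876 genes with no more sites than the chemokine gene richest in sites the backgrounds were higher, at 8.02% for Neil3-null, 14.2% for wild-type and 2.89% for both genotypes. When the libraries were rescaled on dense CCGG sites, the count in both genotypes was 1, Ccr1l1 alone, and 0.445% of all genes passed.

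**Figure D2:**
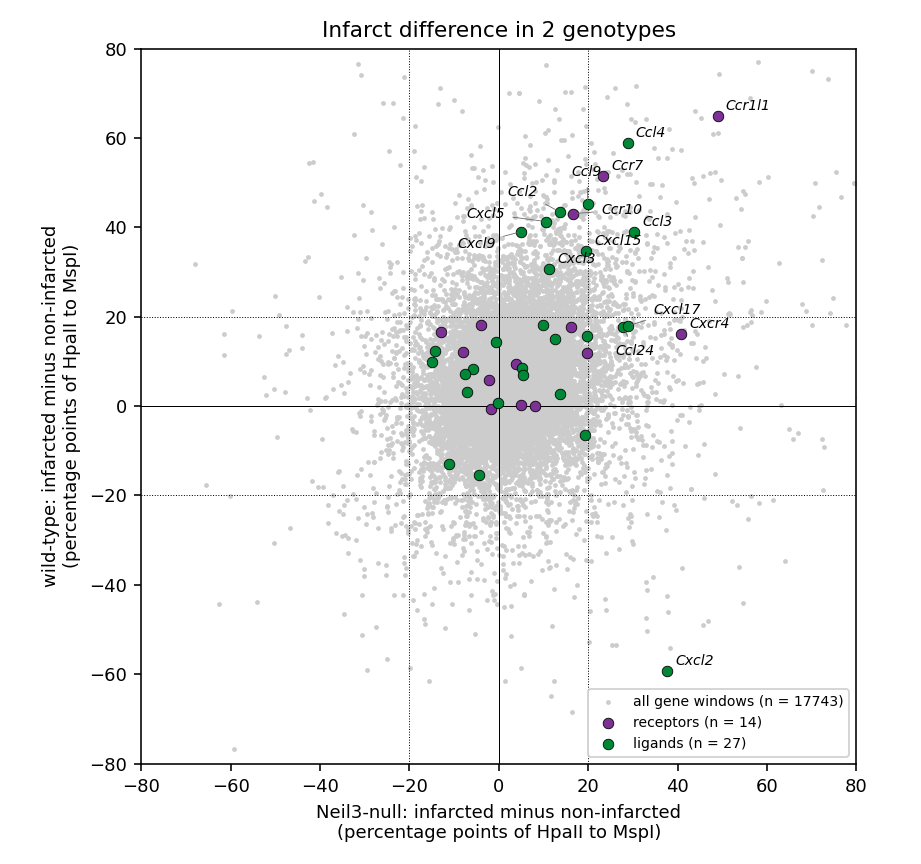
Infarcted minus non-infarcted difference of the HpaII to MspI ratio in percentage points, Neil3-null mice on the x axis and wild-type mice on the y axis; green points are ligand genes, purple points receptor genes, grey points all 17743 gene windows (a few lie outside the axes) and dotted lines mark 20 points. Ccr1l1, Ccl4, Ccl3 and Ccr7 lie beyond 20 points on both axes, and Cxcl2 lies far below the line in wild-type and right of it in Neil3-null mice.

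Among the ligand groups, the inflammatory CC chemokines outside the CCR2 group had the largest pooled infarct difference in wild-type tissue. Pooled over the 37 sites of Ccl3, Ccl4, Ccl5, Ccl6 and Ccl9, the ratio was 119% in Neil3-null infarcted and 103% in Neil3-null non-infarcted tissue, and 135% in wild-type infarcted and 103% in wild-type non-infarcted tissue, differences of 16.4 and 32.0 points. Ccl4 (span chr11:83648624-83664683), which encodes the macrophage inflammatory protein MIP-1 beta, stood at 164% and 135% in Neil3-null and at 208% and 149% in wild-type tissue, infarcted before non-infarcted, differences of 28.9 and 58.8 points. Ccl3 (span chr11:83647843-83649378), the gene of MIP-1 alpha, overlaps Ccl4 in the table. All 7 sites of its window also lie in the window of Ccl4, which holds 12. Ccl3 stood at 153% and 122% in Neil3-null and at 177% and 138% in wild-type tissue. For both genes each infarcted sample was above both non-infarcted samples.

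One site lies in both gene spans, at chr11:83648637. Its HpaII signal was 104 in Neil3-null infarcted and 72.9 in Neil3-null non-infarcted tissue, and 94.2 in wild-type infarcted and 56.2 in wild-type non-infarcted tissue. Its MspI signal was 63.5, 68.0, 62.4 and 64.4 in the same order, so HpaII carried the difference there. The promoter site of Ccl3 printed in capitals above, chr11:83649419, behaved otherwise: its HpaII signal was 109.7, 93.6, 93.2 and 94.8, and its MspI signal 76.7, 72.2, 42.6 and 61.7, so its high ratio of 219% in wild-type infarcted tissue came with a low MspI signal. Without the 1 site that moves the mean most, Ccl4 differed by 32.6 points in Neil3-null and 69.4 points in wild-type tissue, and Ccl3 by 35.7 and 53.5 points.

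Ccl9, which encodes a mouse chemokine that binds CCR1, stood at 146% and 126% in Neil3-null and at 156% and 111% in wild-type tissue, infarcted before non-infarcted. Ccl5, which encodes RANTES, an attractant of T cells and monocytes, stood at 95.5% and 83.0%, and at 100.4% and 85.4%. Both infarcted samples were above both non-infarcted samples for these 2 genes, with differences of 19.9 and 45.1 points for Ccl9 and 12.5 and 15 points for Ccl5. The HpaII share of the library at Ccl9 was higher by 0.23 in Neil3-null and 0.24 in wild-type tissue on the log2 scale. Its MspI share differed by 0.04 and -0.19, so MspI carried part of the wild-type difference. Ccl6, another mouse CCR1 ligand, was among the 5 genes with the lowest mean infarct difference. It stood at 74.1% and 89.0% in Neil3-null and at 92.8% and 82.9% in wild-type tissue, so the samples overlapped.

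The CCR2 ligands attract inflammatory monocytes, and Ccl2, which encodes MCP-1, is the best known of them in the infarct. Ccl2 stood at 182% in Neil3-null infarcted and 168% in Neil3-null non-infarcted tissue, and at 204% in wild-type infarcted and 160.5% in wild-type non-infarcted tissue, differences of 13.7 and 43.5 points. Infarcted samples were the upper pair, although leaving out 1 of its 6 sites took the Neil3-null difference as low as -1.61 points. Its neighbour Ccl12 stood lower, at 72.4%, 78.1%, 93.4% and 85.1%, and was not ordered by tissue. The whole group of 16 sites, with Ccl7 and Ccl8, differed by 14.1 points in Neil3-null and 14.5 points in wild-type tissue. Among the eotaxins, which attract eosinophils through CCR3, Ccl24 stood at 94.0% and 66.1% in Neil3-null and at 89.9% and 72.2% in wild-type tissue, infarcted before non-infarcted, whereas Ccl26 stood at 95.4% and 99.8%, and at 78.8% and 94.2%. Ccl24 was thus higher and Ccl26 lower in the infarct in both genotypes, but without 1 site Ccl26 differed by 1.84 points in Neil3-null tissue. The HpaII share of the library at Ccl24 was higher by 0.28 in Neil3-null and 0.30 in wild-type tissue on the log2 scale. Its MspI share differed by -0.21 and 0.04, so MspI carried part of the Neil3-null difference. The homing ligands Ccl20, Ccl25, Ccl27a and Ccl28, which guide lymphocytes into gut, skin and mucosa, and the T cell attractants Ccl1, Ccl17 and Ccl22 had pooled differences of opposite sign in the 2 genotypes. The pooled difference of the homing ligands was -7.31 points in Neil3-null and 5.79 points in wild-type tissue, and that of the T cell attractants -5.09 and 6.00 points.

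The neutrophil attractants of chromosome 5, ligands of CXCR2 apart from the lung chemokine Cxcl15, did not all differ in the same direction. Cxcl5 stood at 199% and 188% in Neil3-null and at 239% and 198% in wild-type tissue, infarcted before non-infarcted, and Cxcl3 at 129% and 118%, and at 150.1% and 119%. In both, wild-type infarcted tissue stood apart above the other 3 samples. Cxcl15 stood at 121% and 101%, and at 149.8% and 115%; without 1 of its 7 sites its wild-type difference was 18.5 in place of 34.6 points. Cxcl1, which encodes the keratinocyte chemoattractant KC, went the other way: it stood at 138% in Neil3-null infarcted and 149% in Neil3-null non-infarcted tissue, and at 123% in wild-type infarcted and 136% in wild-type non-infarcted tissue, differences of -11.1 and -12.9 points. Its mean infarct difference was the most negative of the 42 genes, but without the site at chr5:90891606 the differences were -1.43 and -1.27 points. At its promoter site chr5:90891146, the first in capitals above, the ratio was 435% and 503% in Neil3-null and 431% and 314% in wild-type tissue, infarcted before non-infarcted. The HpaII signal there was 119 and 101, and 82.6 and 83.0, in the same order. Its MspI signal was 27.3 and 20.2, and 19.2 and 26.4, so the wild-type difference lay in MspI. The second site had an MspI signal of at most 2.24 and is not read.

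Cxcl2 (span chr5:90903899-90905938), which encodes MIP-2, had the 2 genotypes furthest apart in their infarct differences. It stood at 331% in Neil3-null infarcted and 293% in Neil3-null non-infarcted tissue, a difference of 37.7 points, and at 318% in wild-type infarcted and 377% in wild-type non-infarcted tissue, a difference of -59.2 points. The wild-type non-infarcted sample was the high one. Leaving out each of its 6 sites in turn gave 10.7 to 72.2 points in Neil3-null and -85.4 to -32.3 points in wild-type tissue. As a share of its library (per 1000000 units), its HpaII signal was 10.3, 9.56, 11.1 and 10.4 in the same order, and its MspI signal 3.30, 3.41, 3.69 and 2.79. The HpaII share was thus slightly higher in infarcted tissue in both genotypes, and it was the low MspI share that set the wild-type non-infarcted sample apart. The promoter site printed above, chr5:90903819, read 594% in Neil3-null infarcted and 389.7% in Neil3-null non-infarcted tissue, and 451% in wild-type infarcted and 532% in wild-type non-infarcted tissue. Its HpaII signal was 120, 112, 117 and 127 in the same order, and its MspI signal 20.2, 28.9, 25.9 and 23.9. The Neil3-null difference at this site thus lay mainly in MspI.

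The interferon-induced ligands Cxcl9 and Cxcl10 attract T cells through CXCR3. Cxcl9 stood at 152% in Neil3-null infarcted and 147% in Neil3-null non-infarcted tissue, and at 159.9% in wild-type infarcted and 121% in wild-type non-infarcted tissue. Cxcl10 stood at 171%, 151%, 150.0% and 134% in the same order. Both were higher in the infarct in both genotypes, but for Cxcl9 the Neil3-null difference of 4.99 points ran from -27.6 to 60.5 points when 1 of its 5 sites was left out. The promoter site of Cxcl10 printed above, chr5:92348888, read 242% and 377% in Neil3-null and 434% and 290.4% in wild-type tissue, infarcted before non-infarcted. It thus did not follow its window in Neil3-null tissue. Its HpaII signal was 61.5 and 81.0, and 66.9 and 74.7, in the same order. Its MspI signal was 25.4 and 21.5, and 15.4 and 25.7. The high ratio in wild-type infarcted tissue thus came with a low MspI signal. The 1 Cxcl9 site inside its span at chr5:92322806 had an HpaII signal of 68.5 and 35.1 in Neil3-null and of 71.9 and 29.6 in wild-type tissue, infarcted before non-infarcted, over an MspI signal of 14.7, 13.8, 12.7 and 13.1. The infarcted samples were both well above the non-infarcted samples in HpaII there, while MspI was level. As a share of the library, MspI at the whole Cxcl9 window was also higher in infarcted tissue, by 0.53 in Neil3-null and 0.71 in wild-type tissue on the log2 scale, against 0.55 and 1.05 for HpaII.

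Cxcl12 encodes the ligand that holds stem cells and lymphocytes through CXCR4. It stood at 185% in Neil3-null infarcted and 166% in Neil3-null non-infarcted tissue, and at 178% in wild-type infarcted and 184% in wild-type non-infarcted tissue, so the samples overlapped. Cxcl17, an attractant of myeloid cells, stood at 176% and 147% in Neil3-null and at 153% and 135% in wild-type tissue. Its differences were 28.8 and 17.9 points, and its window also holds part of Lipe.

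Among the receptors, Ccr1l1 (span chr9:123976430-123986715), a rodent gene next to Ccr1 and close to it in sequence, had the largest mean infarct difference of all 42 genes, 57.0 points. It stood at 153% in Neil3-null infarcted and 104% in Neil3-null non-infarcted tissue, and at 169% in wild-type infarcted and 104% in wild-type non-infarcted tissue. The 2 non-infarcted samples were alike and both infarcted samples stood far above them. Its HpaII share was higher by 0.52 in Neil3-null and 0.56 in wild-type tissue on the log2 scale, while its MspI share differed by -0.02 and -0.08. Without the site at chr9:123985560, which moves the mean most, the differences were 29.1 and 51.9 points. The 1 measured site of Ccr1 itself, the receptor of CCL3, CCL5 and CCL9 on monocytes and neutrophils, lies at chr9:123965960. Its HpaII signal was 53.2 in Neil3-null infarcted and 24.7 in Neil3-null non-infarcted tissue, and 61.8 in wild-type infarcted and 14.3 in wild-type non-infarcted tissue. Its MspI signal was low, at 12, 9.80, 5.26 and 14.6, and with 1 site the gene was not counted.

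Ccr7 (span chr11:99144199-99155077), the receptor that takes dendritic cells and naive T cells to lymph nodes, stood at 219.6% and 196% in Neil3-null and at 237% and 185% in wild-type tissue, infarcted before non-infarcted, differences of 23.4 and 51.5 points over 23 sites. Both infarcted samples were above both non-infarcted samples. Leaving out 1 site took the Neil3-null difference of Ccr7 as low as 19.6 points. With libraries rescaled to equal totals that difference was also below 20 points. Ccr10 differed by 16.6 and 43.1 points in Neil3-null and wild-type tissue in that order, with sites shared with Plekhh3 and Cntnap1. Cxcr4 stood at 220.3% and 179% in Neil3-null and at 211% and 195% in wild-type tissue, again with the infarcted pair on top. Its promoter site printed above, chr1:128592471, did not follow the window: it read 206% and 183%, and 199% and 216%, higher in the infarct in Neil3-null and lower in wild-type tissue.

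The neutrophil receptors were not ordered by tissue. Cxcr2, the receptor of the neutrophil attractants, stood at 98.7% and 93.6% in Neil3-null and at 86.5% and 86.3% in wild-type tissue, infarcted before non-infarcted. Cxcr1 stood at 81.0% and 93.9%, and at 86.5% and 69.9%. The samples of both genes overlapped between the tissues, and Cxcr1 differed by -12.9 points in Neil3-null and 16.6 points in wild-type tissue. As a share of the library, HpaII at Cxcr1 differed by -0.07 and -0.002 on the log2 scale in the same order. The MspI share there differed by 0.17 and -0.25. At the promoter site of Cxcr1 printed above, chr1:74194763, the ratio was 454% and 699% in Neil3-null and 418% and 418% in wild-type tissue, over MspI signals of only 11.1 to 16.2. Ccr1l1, Ccr7 and Cxcr4 were thus higher in the infarct in both genotypes. The ratio differences of Cxcr1 had opposite signs in the 2 genotypes, with the larger part in MspI.

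**Figure D3:**
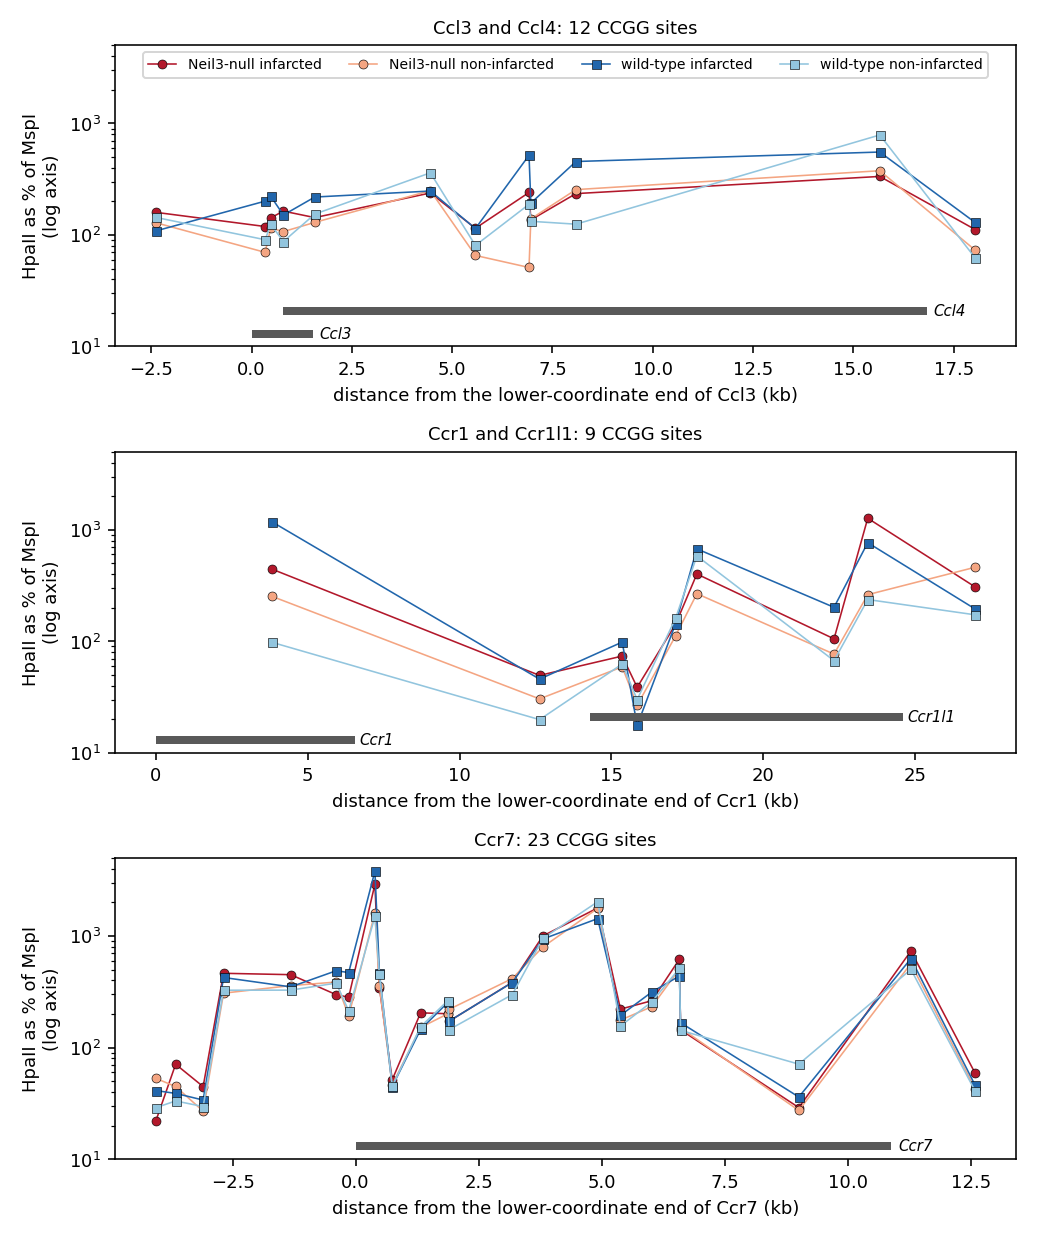
HpaII as a percent of MspI (log axis) at each measured CCGG site of the windows of Ccl3 and Ccl4, Ccr1 and Ccr1l1, and Ccr7, by distance in kb from the lower-coordinate end of the first gene; grey bars are gene spans and the 4 lines are the 4 samples. The infarcted lines lie above the non-infarcted lines at most but not all sites, and the ratio varies between sites of 1 window by far more than between samples at 1 site.

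One fit over all 4 samples was possible, an additive limma model of the log2 ratio with tissue and genotype as terms and 1 residual degree of freedom. After Benjamini-Hochberg adjustment over 17743 genes no gene passed 0.05 for the infarct term (background 0%), and the smallest adjusted p was 0.163. Ccr1l1 was higher in infarcted tissue by 0.63 on the log2 scale (SE 0.07, adjusted p = 0.163 by limma), Ccl24 by 0.41 (SE 0.07, adjusted p = 0.19 by limma) and Ccl4 by 0.38 (SE 0.07, adjusted p = 0.191 by limma). At an unadjusted p under 0.05, 19 of the 42 chemokine and receptor genes were higher in the infarct (background 10.8%) and 0 were lower (background 2.21%). The 19 were 13 ligand and 6 receptor genes. With at least 10 sites per window, 42 of 15719 genes passed the adjustment. That set holds 21 of the chemokine genes, and Ccl4 and Ccl24 were among the 42. The fit behind it also has 1 residual degree of freedom and no replicate samples.

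**Figure D4:**
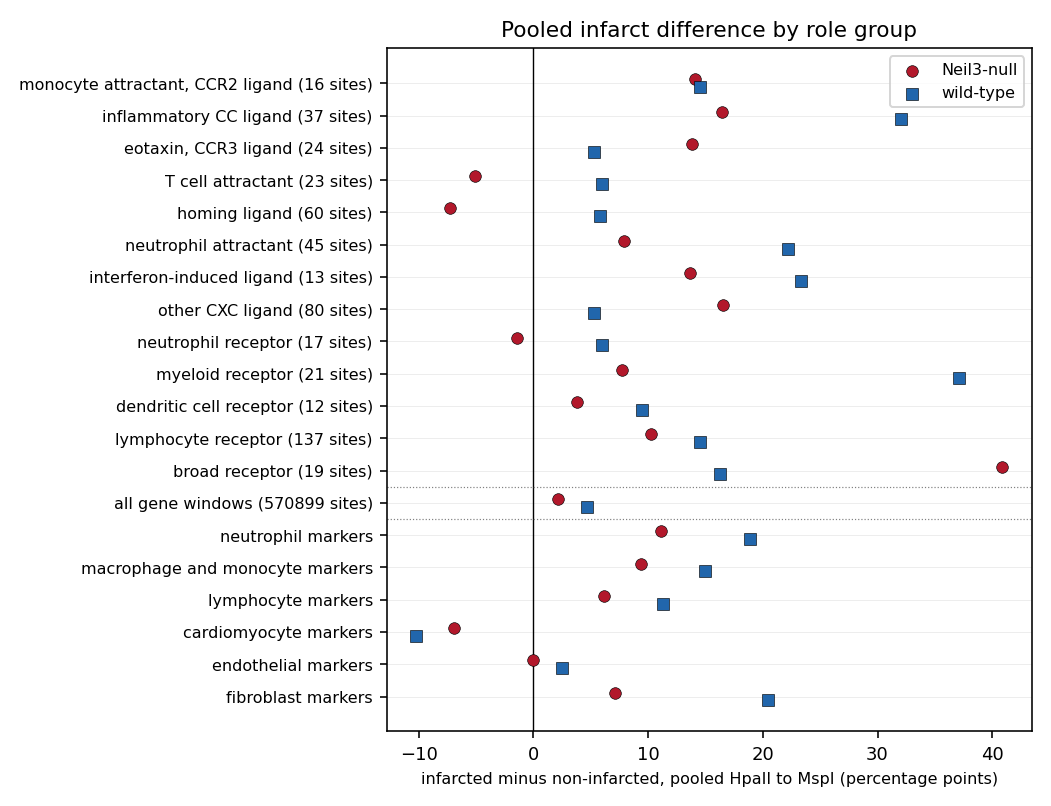
Infarcted minus non-infarcted difference of the pooled HpaII to MspI ratio in percentage points, in Neil3-null (red circles) and wild-type (blue squares) mice, for the role groups of the chemokine genes, all gene windows and lists of cell type markers. Cxcr4 (broad receptor) lies farthest right in Neil3-null mice at 40.9 points and the myeloid receptors in wild-type mice at 37.1 points, and cardiomyocyte markers lie left of 0 in both genotypes.

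Genes that mark the cells of the heart and of the infarct also differed between the tissues. HpaII was higher in infarcted tissue in both genotypes at 5 of the 6 measured neutrophil markers, 7 of 10 macrophage and monocyte markers and 6 of 8 lymphocyte markers, while 10 of 14 cardiomyocyte markers were lower in both. Over all genes 47.4% were higher in both and 14.4% lower in both. Pooled, the macrophage and monocyte markers stood at 135% and 125% in Neil3-null and at 137% and 122% in wild-type tissue, infarcted before non-infarcted. The neutrophil markers stood at 122% and 110.5%, and at 126% and 107%, and the lymphocyte markers at 133% and 127%, and at 133% and 121%. Fibroblast markers, 7 of 8 measured, stood at 145% and 137%, and at 152% and 132%, and cardiomyocyte markers at 99.9% and 107%, and at 91.9% and 102%. Endothelial markers were close to level, at 122% and 122%, and at 119.9% and 117%. Single macrophage and monocyte markers ran from -4.18 points (Mrc1) to 34.5 points (Cd14) in Neil3-null and from -8.31 points (Adgre1) to 51.6 points (Lyz2) in wild-type tissue. These are values of DNA and not of expression, and the part of the cell mix in the chemokine gene differences was not tested.

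The rest of the chemokine pathway was read through a list of 23 further genes (other ligands, scavenging receptors, G protein subunits, arrestins and kinases that act behind the receptors). Of these, 22 were measured, 9 were higher in the infarct in both genotypes and 4 were lower in both, or 40.9% and 18.2%, against 47.4% and 14.4% of all genes. Their pooled ratio was 107% and 105% in Neil3-null and 106% and 101% in wild-type tissue, infarcted before non-infarcted, close to that of all gene windows. One of the 22, Rgs2, which dampens G protein signals, was at least 20 points higher in both genotypes. It stood at 374% and 337%, and at 335% and 308%.

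The second question is how Neil3-null tissue differed from wild-type tissue. In non-infarcted tissue the median difference of the 42 genes was 5.39 points, against 3.12 over all genes. In infarcted tissue it was -4.66 points, against 0.55 over all genes. In the non-infarcted pair 3 of the 42 genes were at least 20 points higher in Neil3-null tissue, Cxcr1, Cxcl9 and Ccr8 (background 3.69%), and 1 was at least 20 points lower, Cxcl2 (background 2.58%). As a share of the library, HpaII at Cxcr1, Cxcl9 and Ccr8 differed by 0.17, 0.23 and 0.003 on the log2 scale. The MspI share differed by -0.21, -0.01 and -0.23, so at Ccr8 the difference lay in MspI. In the infarcted pair 2 were at least 20 points higher, Cxcl10 and Cxcl17 (background 3.42%), and 10 were at least 20 points lower (background 4.6%). The 10 were Cxcl3, Cxcl5, Cxcl15, Ccl1, Ccl2, Ccl3, Ccl4, Ccl11, Ccl12 and Ccr10, 9 of them ligands. Among genes with few sites the background for that direction was 6.68%. Ccl3 and Ccl4 share sites, as do Cxcl3 and Cxcl15, and of the 38 merged windows 7 were at least 20 points lower. The difference was -43.9 points for Ccl4, -40.4 for Cxcl5, -24.7 for Ccl3 and -21.7 for Ccl2. As a share of the library, HpaII was lower in Neil3-null tissue at each of the 10, from -0.06 (Ccr10) to -0.39 (Ccl12) on the log2 scale. At Ccl1 the HpaII share differed by -0.10 and the MspI share by 0.21, and at Ccr10 by -0.06 and 0.09. The larger part thus lay in MspI at Ccl1 and Ccr10. At Ccl4 the HpaII share differed by -0.20 and the MspI share by 0.15. When the libraries were rescaled on dense sites 1 of the 10 still passed 20 points, as did 0.564% of all genes. With at least 10 sites per window 5 of 21 genes did, against 3.40% of all genes.

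No gene was at least 20 points apart in the same direction in both tissues, higher (background 0.411%) or lower (background 0.507%). The genes with the highest mean genotype difference were Cxcl10, Cxcl17 and Cxcl1. Cxcl10 differed by 21.2 points in infarcted and 17.0 points in non-infarcted tissue, Cxcl17 by 22.9 and 12 points, and Cxcl1 by 15.2 and 13.3 points. As a share of the library, HpaII at Cxcl10 differed by -0.09 and 0.04 on the log2 scale, and MspI by -0.27 and -0.08. At Cxcl17 HpaII differed by 0.08 and -0.02 and MspI by -0.11 and -0.10. At Cxcl1 HpaII differed by 0.10 and 0.02 and MspI by -0.05 and -0.07. The higher Cxcl10 ratio in infarcted tissue thus came with a lower MspI share. In the ratio, each Neil3-null sample was above both wild-type samples for Cxcl10 and Cxcl1, whereas for Cxcl17 the samples overlapped. Without 1 of its 9 sites Cxcl1 differed by -0.71 and 1.48 points. The genes with the lowest mean were Cxcl2, Ccl4 and Cxcl5. Ccl4 differed by -43.9 points in infarcted and -13.9 points in non-infarcted tissue, and Cxcl5 by -40.4 and -9.76 points. Cxcl2 differed by 13.2 points in infarcted and -83.7 points in non-infarcted tissue, values of opposite sign. Its HpaII share differed by -0.11 and -0.12 on the log2 scale and its MspI share by -0.16 and 0.29.

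In the additive limma fit 2 of the 17743 genes passed the adjusted threshold for genotype (background 0.0113%), and neither was a chemokine or receptor gene. At an unadjusted p under 0.05, 6 of the 42 were higher in Neil3-null tissue, Cxcl1, Cxcl10, Cxcl17, Ccl17, Ccl26 and Cxcr2 (background 4.4%). Another 7 were lower, Cxcl5, Cxcl15, Ccl1, Ccl3, Ccl4, Ccl11 and Ccl12 (background 1.99%). The 2 comparisons behind each count share no sample with each other, but the infarct and genotype terms rest on the same 4 samples.

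The libraries of MspI after glucosylation, the C+mC libraries, leave out the sites that carry 5-hydroxymethylcytosine, so a lower ratio to MspI means relatively more of that base. At ligand sites the ratio was 104% in Neil3-null infarcted, 103% in Neil3-null non-infarcted, 104% in wild-type infarcted and 111% in wild-type non-infarcted tissue. At receptor sites it was 110.5%, 111%, 110.3% and 114% in the same order, and over all gene windows 99.8%, 99.2%, 98.3% and 100.1%. The wild-type non-infarcted sample was highest in all 3. That library stood apart near gene starts in general: within 1 kb of a start, the ratio over all genes was 122% in Neil3-null infarcted, 127% in Neil3-null non-infarcted, 118% in wild-type infarcted and 138% in wild-type non-infarcted tissue. Between genotypes the ligand ratio in non-infarcted tissue differed by -7.92 points, against -0.82 over all gene windows, and it stayed negative under every alternative run (-16.9 to -3.98). The receptor difference there was -3.17 points, with -10.1 to -0.351 under the alternatives. The other class differences in this ratio changed sign with at least 1 setting.

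By gene, the highest mean infarct difference in the C+mC ratio belonged to Cxcl15 and Ccl5. Cxcl15 stood at 92.8% and 80.4% in Neil3-null and at 102% and 78.7% in wild-type tissue, infarcted before non-infarcted, and Ccl5 at 99.0% and 84.4%, and at 98.8% and 81.5%. Both infarcted samples were above both non-infarcted samples. The lowest belonged to Ccr10, at 145% and 161%, and at 149.8% and 194%, and to Cxcl2, at 137% and 157%, and at 134% and 167%. There both infarcted samples were below both non-infarcted samples. For genotype, Cxcr6, the receptor of CXCL16, stood at 112% and 117% in Neil3-null and at 102% and 91.2% in wild-type tissue. Ccr3, the eotaxin receptor, stood at 66.8% and 98.7%, and at 74.2% and 56.4%, with overlap. The gut-homing receptor Ccr9 was lower in Neil3-null tissue, at 77.2% and 73.2%, against 97.3% and 95.5% in wild-type tissue. Cxcl12 was lower too, at 135% and 134%, against 139.6% and 169.7%.

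Of the 504 sites, 411 had an MspI signal of at least 10 in every sample and were read one by one. In the infarct, 137 of them were higher in both genotypes (33.3%, against 26.4% of all sites) and 72 were lower in both (17.5%, against 26.8%). A 2-fold difference in both genotypes was seen at 1 site that was higher (0.243%, background 0.881%) and 2 that were lower (0.487%, background 0.693%). Both shares were below those of all sites. The higher one lies within the span of Cxcl17 at chr7:25412010, and HpaII was 73.3% of MspI in Neil3-null infarcted and 30.5% in Neil3-null non-infarcted tissue, and 50.8% in wild-type infarcted and 25.1% in wild-type non-infarcted tissue. The lower ones lie outside the spans of Ccr4, at chr9:114488020, and of Ccr6, at chr17:8231680. The Ccr4 site read 4.47%, 13.6%, 4.87% and 11.4%, and the Ccr6 site 20.3%, 82.0%, 24.0% and 54.0%, in the same order.

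Between genotypes, 3 of the 411 sites were 2-fold higher in Neil3-null tissue in both tissues (0.730%, background 0.764%) and 2 were 2-fold lower (0.487%, background 0.56%). Neither share was above that of all sites. The clearest of these sites lies in the Cxcl16 window at chr11:70461423, within the span of the neighbouring gene Zmynd15. Its HpaII signal was 25.7 and 17.3 in Neil3-null infarcted and non-infarcted tissue, against 3.61 and 3.19 in wild-type infarcted and non-infarcted tissue, while its MspI signal was level at 26.9, 27.7, 27.3 and 28.3. The wild-type values lie close to the lowest HpaII value listed in those libraries, which was 3.16 in wild-type infarcted and 2.19 in wild-type non-infarcted tissue. A site inside Ccr6, the receptor of CCL20, at chr17:8256402 had HpaII signals of 31.9 and 38.8 in Neil3-null against 9.79 and 15.6 in wild-type tissue, over MspI signals of 30.1 and 28.2 against 31.7 and 29.4. A site beyond Ccl24, at chr5:135577568, had 29.0 and 27.4 in Neil3-null against 16.4 and 14.8 in wild-type tissue, over MspI signals of 41.8 and 65.9 against 73.2 and 72.3. One lower site lies inside Cxcl13 at chr5:95957721, with HpaII signals of 11.1 and 7.98 in Neil3-null against 19.1 and 18.4 in wild-type tissue, over MspI signals of 26.8 and 27.1 against 17.6 and 28. The other lies near Ccr4 at chr9:114509521, with 4.18 and 4.35 against 15.9 and 6.16, over MspI signals of 17.2 and 25.1 against 14.7 and 17.4. At the Ccl24 site, at the Cxcl13 site in infarcted tissue and at the Ccr4 site in non-infarcted tissue, HpaII alone differed by less than 2-fold, and the MspI difference carried the ratio past it.

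**Figure D5:**
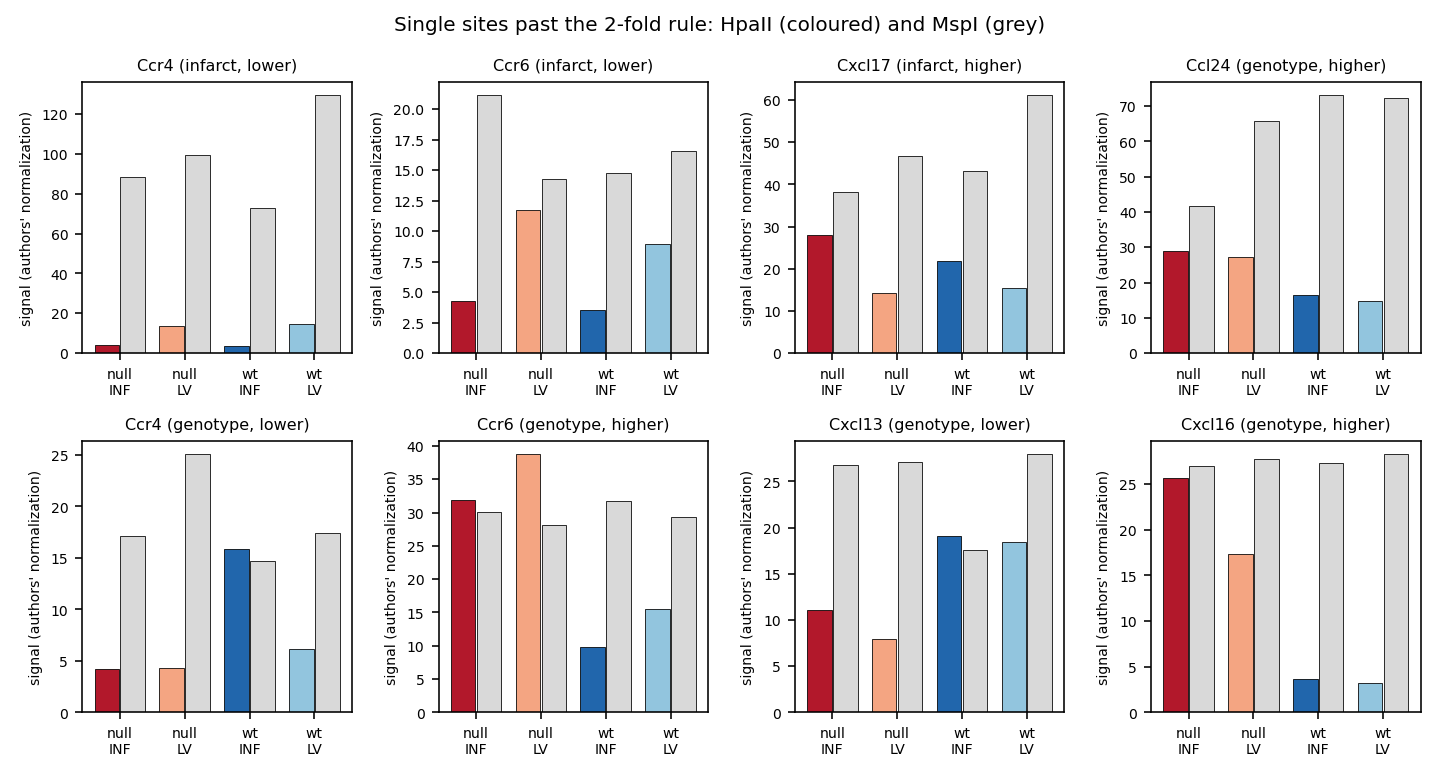
HpaII signal (coloured bars) and MspI signal (grey bars) in the authors' normalized units at the 8 sites past the 2-fold rule, with 1 bar pair per sample (null, Neil3-null; wt, wild-type; INF, infarcted; LV, non-infarcted) and each panel named by the nearest gene. The Cxcl16 panel has level MspI bars and HpaII bars of 25.7 and 17.3 in Neil3-null tissue over 3.61 and 3.19 in wild-type tissue.

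Position relative to the gene start was known for the 39 genes with a promoter window. Within 1 kb of a start, 71 sites gave 161% in Neil3-null infarcted and 157% in Neil3-null non-infarcted tissue, and 164% in wild-type infarcted and 154% in wild-type non-infarcted tissue. Sites of all genes within 1 kb of a start gave 196%, 192%, 199% and 192% in the same order, so the chemokine genes were lower there. From 1 to 5 kb, 140 sites gave 123% and 115% in Neil3-null and 123% and 112% in wild-type tissue, infarcted before non-infarcted, and from 5 to 20 kb, 117 sites gave 122% and 114%, and 127% and 108%. With distance the infarct difference was thus 3.11, 8.53 and 7.77 points in Neil3-null tissue and 10.5, 11 and 18.9 points in wild-type tissue. Over all genes it was 3.77, 3.31 and 1.80 points in Neil3-null and 7.40, 6.10 and 3.72 points in wild-type tissue. That difference over all genes was thus smaller far from any start. The chemokine sites were placed by the nearest start among the 39 genes, but all sites by the nearest start of any gene. The 2 courses with distance therefore rest on unlike distances, and a chemokine site far from its own gene may lie near another start. Within 1 kb the classes differed: the 55 ligand sites had differences of 2.12 points in Neil3-null and 15.6 points in wild-type tissue, and the 16 receptor sites 5.63 and -3.51 points.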

How the data were processed

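Genomic DNA of 4 left ventricle samples was read by HMST-seq, in 3 libraries per sample: HpaII ("C"), MspI after glucosylation ("C+mC") and MspI ("C+mC+hmC"), per the labels' protocols. The deposited values are a signal per CCGG site and library, normalized by the authors. The normalization method, the aligner and filters were not given in the sources used here. The build is mm10, per the submitters' processing notes. Depth is unknown, since no whole tags could be recovered, so no counting interval is given.

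Deposited positions were found to be the 0-based start of CCGG by matching RefSeq promoter sequences, and 1-based positions are printed. Sites listed in all 4 samples on the 19 autosomes were used, with gene spans from a RefSeq table of GRCm38.p6, 5 kb flanks and at least 5 sites per gene. Of 20665 autosomal protein-coding genes, 107 lay off the primary assembly. Signals were summed per gene or class, and ratios to MspI are in percent. Pooled signals were also expressed per 1000000 units of the library total over shared sites.

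With 1 sample per group there is no replicate, and the size rules (20 points per gene, 2-fold per site with MspI of at least 10) stand in for a test, with the share over all genes or sites as background. The additive fit used limma 3.58.1 in R 4.3.3 with Benjamini-Hochberg adjustment at 0.05, after a check on simulated data. Other steps used Python 3.11.15, numpy 2.4.6, pandas 2.3.3 and matplotlib 3.10.9. The 1 residual degree of freedom of the fit is the departure of the 4 samples from additivity. It was moderated by the variance over all gene windows, to 6.888 degrees of freedom in total. The p-values therefore measure no spread between replicate samples.

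Genes given with all values were the 5 highest and 5 lowest mean infarct differences, the 3 highest and 3 lowest mean genotype differences, 2 and 2 of each for the C+mC ratio, and Ccl2, Ccl5, Ccr2, Ccr7, Cxcl1, Cxcl2, Cxcl12, Cxcr2 and Cxcr4. Other genes are named by their role group. One gene is not reported here by itself and enters only the counts and pooled values. The members, lists and rules were chosen with earlier results of these data known. Alternatives covered the flank, weak sites, the median over sites, scaling of libraries, the largest window, and the number of sites. Leaving out the site that moves a gene most, and the background over genes with few sites, were chosen after seeing the data.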

Additional observations from a re-analysis of the deposited data

Results flagged for a closer look

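Cxcl2 was the 1 gene singled out because its infarct difference passed 20 points in both genotypes in opposite directions. The HpaII to MspI ratio differed by 37.7 points between infarcted and non-infarcted tissue in Neil3-null mice and by -59.2 points in wild-type mice. As a share of the library, HpaII was higher in infarcted tissue by 0.10 on the log2 scale in both genotypes. The MspI share differed by -0.05 in Neil3-null and 0.40 in wild-type mice, so the opposite signs came with MspI. The difference between the genotypes was not tested, since each value rests on 1 sample per group and on 6 sites. Without the site at chr5:90901486, which moves the mean most, the differences were 44.0 points in Neil3-null and -32.3 points in wild-type mice. Over each site left out in turn they ran from 10.7 to 72.2 points in Neil3-null, so below 20 points in at least 1 case, and from -85.4 to -32.3 points in wild-type mice.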

How the results depend on the processing

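The infarct differences of the HpaII ratio kept their direction for ligands and for receptors under every alternative run. Differences are in percentage points, Neil3-null minus wild-type (genotype) or infarcted minus non-infarcted (infarct), and the cause of each shift was not tested unless the setting itself tests fewer genes.

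With gene spans alone, the ligand C+mC ratio differed with the infarct by -1.04 in Neil3-null and -16.4 in wild-type tissue, and with genotype by 0.974 in infarcted and -14.4 in non-infarcted tissue. The receptor values were -2.97, -6.98, -1.73 and -5.74 in the same order. Only 12 of the genes then had 5 sites, and the counts past 20 points (with the share of all genes) were 5 higher (6.01%) and 0 lower (3.05%) for the Neil3-null infarct, 3 (10.7%) and 0 (3.73%) for the wild-type infarct, 1 (4.71%) and 2 (5.79%) for genotype in infarcted tissue, and 0 (4.47%) and 3 (3.55%) in non-infarcted tissue. Both genotypes gave 2 genes higher in the infarct (2.22%; Ccr1l1, Ccl4), and both tissues 2 genes lower in Neil3-null tissue (0.838%; the same 2).

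With the median over sites, genotype differences of the HpaII ratio were 1.23 in infarcted and -4.18 in non-infarcted tissue for ligands and -7.03 in infarcted tissue for receptors. For the C+mC ratio, ligands differed by 7.23 (Neil3-null infarct), -11.6 (wild-type infarct), 1.95 (genotype, infarcted) and -16.9 (genotype, non-infarcted), and receptors by -6.82 (genotype, infarcted) and -10.1 (genotype, non-infarcted).

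With libraries rescaled to equal totals, the genotype difference of the HpaII ratio was -1.48 for ligands in non-infarcted and -0.136 for receptors in infarcted tissue, and that of the receptor C+mC ratio -1.0 in infarcted tissue. Genes past 20 points numbered 1 higher in infarcted (2.47% of all genes) and 3 lower in non-infarcted (4.28%) Neil3-null tissue, and 0 sites were 2-fold higher in the infarct in both genotypes. By gene, 3 were higher in the infarct in both genotypes (1.01%), Ccr1l1, Ccl3 and Ccl4, without Ccr7.

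Rescaling on 5619 dense sites multiplied HpaII by 0.555 to 0.573. The ligand HpaII ratio then differed with genotype by 0.695 in infarcted tissue. The ligand C+mC ratio differed by 5.05 (wild-type infarct), -4.42 (genotype, infarcted) and -3.98 (genotype, non-infarcted), and the receptor one by 3.30 (Neil3-null infarct), 7.31 (wild-type infarct), -4.36 and -0.351 (genotype, infarcted and non-infarcted). Counts were 3 higher (1.76% of all genes) and 0 lower (0.237%) for the Neil3-null infarct, 0 higher (1.11%) and 1 lower (0.564%) for genotype in infarcted tissue, 0 higher (0.744%) in non-infarcted tissue, and 1 for the infarct in both genotypes (0.445%).

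With at least 10 sites, 21 genes were tested: 5 were higher (4.26% of all genes) and 0 lower (1.08%) for the Neil3-null infarct, 5 (8.83%) and 0 (1.59%) for the wild-type infarct, 1 (2.40%) and 5 (3.40%) for genotype in infarcted tissue, 0 (2.67%) and 0 (1.48%) in non-infarcted tissue, and 2 for the infarct in both genotypes (1.41%). In limma 42 of 15719 genes then passed for the infarct, and 0 passed for genotype with samples centred on the median window. With an MspI signal of at least 20, 1 site was 2-fold lower in the infarct and 0 lower by genotype. Without the window of Cxcr5, receptors differed with genotype in infarcted tissue by -3.01 (HpaII) and -1.53 (C+mC) and with the Neil3-null infarct by -3.01 (C+mC). Without the window of Ccl28, the ligand C+mC ratio differed with genotype by 0.788 in infarcted tissue.

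No paired analysis was possible because the labels give no replicate numbers and each group has 1 sample. Leaving out a replicate was not possible for the same reason. The unknown tag number, the few sites per gene and the low MspI signal of some sites limit all values.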
